A study of Homo sapiens with 5 samples.

Results

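The genes described here encode the protein parts of the cell's ribosomes, those of the cytoplasm and those of the mitochondrion. They were taken by symbol: protein-coding genes whose names start with RPL, RPS, RPLP, MRPL or MRPS, without pseudogenes, without the RPS6K kinases and RPS19BP1, and without chromosomes 21 and Y. This gave 124 of the 14812 named genes on the arrays, 72 mitochondrial and 52 cytoplasmic. RefSeq lists 75 and 89 genes that meet the same rule on symbols, so 3 mitochondrial and 37 cytoplasmic ones were not analysed here, among them RPLP0, RPL5 and RPL10.

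The cells were LNCaP, an established line of human prostate cancer cells that respond to androgen. They carried a retroviral short hairpin RNA against the retinoblastoma gene RB1 (shRB, 3 arrays) or a scrambled hairpin (shControl, 2 arrays), both under puromycin selection. Both groups received 10 Gy of ionizing radiation, and RNA was taken 24 h later. Unirradiated cells were not analysed here, so every difference given is between irradiated populations. Nothing in the labels tells whether arrays of a group were grown as separate cultures, so p-values measure only the spread between these arrays, which may be technical.

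Cytoplasmic ribosomes join a small 40S subunit (RPS proteins), which reads the messenger RNA, to a large 60S subunit (RPL proteins), which forms the peptide bond. Their messenger RNAs typically start with a C followed by an unbroken run of pyrimidines, the 5′ terminal oligopyrimidine (TOP) tract, through which the mTOR pathway controls their translation. Mitochondrial ribosomes have a 28S and a 39S subunit, whose proteins are mostly named MRPS and MRPL. These proteins are encoded in the nucleus and imported. The ribosomes make the few respiratory chain subunits encoded in mitochondrial DNA. Nuclear genes for mitochondrial proteins are often controlled by ETS-family factors such as GABPA, and by NRF1.

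The start sites of the genes show the difference between the sets. RefSeq promoter windows (GRCh38.p14, 250 bases before to 50 after the start) were matched for 64 of 72 mitochondrial and 47 of 52 cytoplasmic members, taking the first listed start of a gene. A tract was counted where a C within 5 bases of the annotated start opened a run of at least 5 pyrimidines. Such a tract stood at the start of 14 of the 64 mitochondrial genes (21.9%), 36 of the 47 cytoplasmic genes (76.6%) and 22.1% of 15842 protein-coding genes. Its median length was 10 bases in the cytoplasmic members that had it, and 5 in the mitochondrial ones. The sequences below run 5′ to 3′ from 15 bases before the start to 20 after it, with the tract in capitals. The first 6 are cytoplasmic genes described in the results, the last pair mitochondrial genes with no such tract.
RPL41: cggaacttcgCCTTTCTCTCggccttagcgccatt
RPL38: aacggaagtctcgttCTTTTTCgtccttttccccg
RPS18: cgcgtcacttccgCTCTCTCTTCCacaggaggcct
RPS23: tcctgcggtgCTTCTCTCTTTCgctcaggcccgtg
RPS28: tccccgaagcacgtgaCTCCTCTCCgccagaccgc
RPS19: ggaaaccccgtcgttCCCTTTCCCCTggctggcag
MRPS14: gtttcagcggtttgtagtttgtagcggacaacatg
MRPL4: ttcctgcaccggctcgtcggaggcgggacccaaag
They lie at chr12:56116618-56116652, chr17:74203663-74203697, chr6:33272060-33272094, chr5:82278335-82278369, chr19:8321481-8321515, chr19:41860240-41860274, chr1:175023406-175023440 and chr19:10251936-10251970, in the order shown. RPS23 and MRPS14 are on the minus strand and the others on the plus strand.

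Mitochondrial genes more often carried the ETS core CCGGAAG, searched on both strands of the window. It was present in 28 of 64 mitochondrial promoters (43.8%), 13 of 47 cytoplasmic ones (27.7%) and 14.2% of all. The NRF1 motif (GCGCA, any base, then GCGC) was found in 12.5% of mitochondrial, 10.6% of cytoplasmic and 8.57% of all promoters, and the E-box CACGTG in 7.81%, 6.38% and 8.88%. The E2F motif, TTTCGCGC or TTTGGCGC, was searched because RB1 restrains E2F factors. It was found in 3 mitochondrial promoters (4.69%, MRPL18, MRPL37 and MRPS7), in 0 of 47 cytoplasmic ones and in 1.67% of all. A match describes the letters and does not show that a factor binds there. MRPS14, MRPL34, MRPL4 and MRPL55, which had array differences of similar size to the genes printed below, held no ETS core. A link between the core and the array differences was not tested. The windows of 3 mitochondrial genes with larger array differences, chosen because they hold the core, follow with it in capitals, from 80 bases before the start to 20 after it.
MRPS23: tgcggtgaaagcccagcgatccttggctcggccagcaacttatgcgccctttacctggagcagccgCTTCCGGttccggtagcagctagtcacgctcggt
MRPL48: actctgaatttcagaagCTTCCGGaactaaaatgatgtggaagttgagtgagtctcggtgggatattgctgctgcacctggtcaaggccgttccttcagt
MRPL47: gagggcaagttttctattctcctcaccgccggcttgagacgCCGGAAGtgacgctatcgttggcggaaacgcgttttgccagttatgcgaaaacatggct
They lie at chr17:57850025-57850124 (minus strand), chr11:73787794-73787893 (plus strand) and chr3:179604619-179604718 (minus strand).

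**Figure D1:**
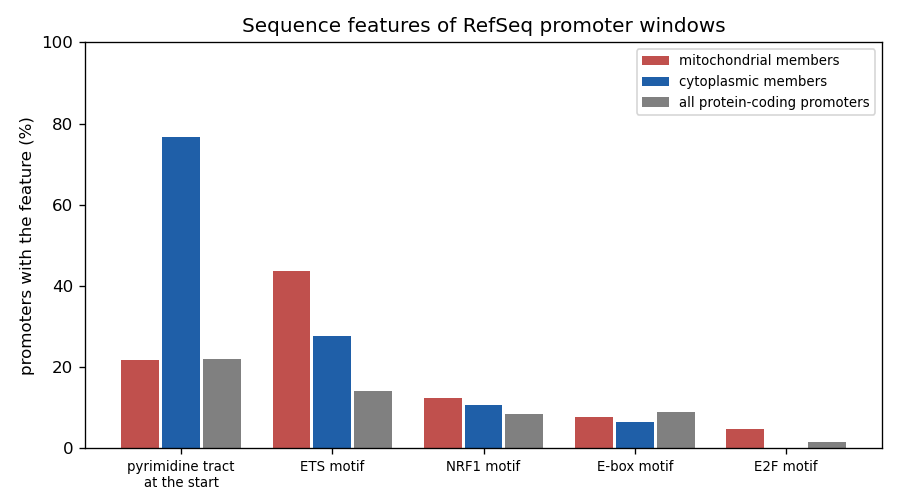
Share of RefSeq promoter windows (vertical axis, percent) that hold a pyrimidine tract at the start or a match to each motif, for 64 mitochondrial members, 47 cytoplasmic members and 15842 protein-coding genes. The tract stands at 76.6% of cytoplasmic members and the ETS core in 43.8% of mitochondrial ones.

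The arrays gave 1 linear intensity per probe set, which was analysed as log2 intensity with no further scaling. The lowest value of each array lay at 16, a log2 of 4, so folds of dim genes are understated. Array medians lay between 27.4 and 28.0 in shRB and at 26.6 and 28.1 in shControl, and arrays correlated at r = 0.983 to 0.986 within shRB, 0.966 between the shControl arrays and 0.955 to 0.970 across groups. The arrays differed at the bright end. The log2 intensity that the brightest 0.1% of probe sets exceeded was 11.69, 11.54 and 11.40 in shRB replicates 1 to 3 and 11.66 and 11.69 in shControl. RB1 itself had 5.16, 5.28 and 5.20 in shRB and 5.81 and 5.70 in shControl, a difference of -0.54 (limma adjusted p = 0.0967). The 6 measured luminal prostate markers of 11 listed had a log2 summed intensity of 11.49 to 11.53 in shRB and 11.48 and 11.60 in shControl. The 5 measured mesenchymal markers of 10 summed to 9.37 to 9.54 in shRB and 10.44 and 10.46 in shControl, where FN1 and VIM passed as lower in shRB and DCN and LUM lay near the floor in both groups. THY1 had a difference of 0.20 (limma adjusted p = 0.559), and most of the summed intensity was that of FN1, whose log2 intensity was 9.26 to 9.46 in shRB and 10.35 and 10.39 in shControl. The 3 measured blood and endothelial markers of 9 (CD68, LYZ and VWF) summed to 7.31 to 7.40 in shRB and 7.01 and 7.71 in shControl. The part of the mesenchymal markers in the results below was not tested.

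Taken side by side, mitochondrial ribosomal protein genes leaned higher in shRB cells and cytoplasmic ones leaned slightly lower, with 1 gene of the 124 past the test. In RNA from whole cultures, a change in the mix of cells and a change in RNA per cell cannot be told apart. In the mitochondrial set 52 of 72 differences were positive and the median log2 difference was 0.17. In the cytoplasmic set 16 of 52 were positive and the median was -0.08, but after quantile normalization, which gives all arrays the same distribution, that lean was gone, with 26 positive, 26 negative and a median of -0.004. Among all 14812 genes 53.8% were positive, with a median of 0.02. By limma with Benjamini-Hochberg adjustment over all genes, 0 mitochondrial members passed a threshold of 0.05, with 15 higher and 1 lower at an unadjusted p under 0.05, against 10.9% higher and 7.22% lower among all genes. In the cytoplasmic set 1 member passed, RPL3L, which was lower, beside 1.07% of all genes past the threshold in either direction, 0.695% higher and 0.378% lower.

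Counts of genes whose arrays did not overlap showed the same lean for the mitochondrial set. In 29 of 72 mitochondrial genes (40.3%) every shRB array lay above both shControl arrays, against 20.6% of all genes, and in 2 every shRB array lay below, against 15.4%. Of the 4451 other genes within the range of mean log2 intensity of the mitochondrial members, 24.02% lay above and 20.76% below. After quantile normalization the mitochondrial counts were 30 higher, against 18.6% of all genes, and 2 lower, against 17.3%. With array medians subtracted the mitochondrial count fell to 19 (26.4%), against 18.5% of all genes. In the cytoplasmic set 5 of 52 lay above (9.62%) and 13 below (25%). Of the 38 cytoplasmic members with a mean log2 intensity of at least 10, 7.895% lay above and 28.95% below. Of the 82 other genes at that level, 24.39% lay above and 32.93% below, so the bright members were not more often below than these. After quantile normalization 11 cytoplasmic genes lay above (21.2%) and 10 below (19.2%), against 18.6% and 17.3% of all genes. Each of these counts describes single genes that share the same 5 arrays.

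The values by array showed where each lean came from. The median mitochondrial gene stood 0.06 above its mean over the 5 arrays in shRB replicate 1, 0.01 below it in replicate 2 and 0.18 above it in replicate 3. In shControl it stood 0.03 below in replicate 1 and 0.17 below in replicate 2. The highest shRB array and the lowest shControl array thus set much of the mitochondrial difference. The median was 0.11 without shRB replicate 3, 0.11 without shControl replicate 2 and 0.24 without shControl replicate 1. The shControl arrays differed from each other by a median of -0.11 (replicate 2 minus replicate 1) over the mitochondrial genes, with 53 of 72 lower in replicate 2, against -0.05 over the cytoplasmic genes and 0.02 over all genes.

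The cytoplasmic genes followed a different order of arrays. Their median deviation was 0.09 in shRB replicate 1, -0.11 in replicate 2 and -0.07 in replicate 3, against 0.07 and 0.04 in shControl. Replicate 1 of shRB thus lay with the shControl arrays, and the lower values were those of shRB replicates 2 and 3. On these arrays the brightest 0.1% of probe sets also began at lower intensities. Those probe sets include cytoplasmic members themselves, such as RPL41 (12.30 and 12.13 on these arrays), so this is not a wholly separate observation. Without shRB replicate 1, the cytoplasmic genes below both shControl arrays numbered 30 of 52, against 21.3% of all genes. The 38 cytoplasmic members with a mean log2 intensity of at least 10 had a median difference of -0.11, and the 14 dimmer ones of 0.04. The 82 other genes at or above 10 had a median of -0.03.

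**Figure D2:**
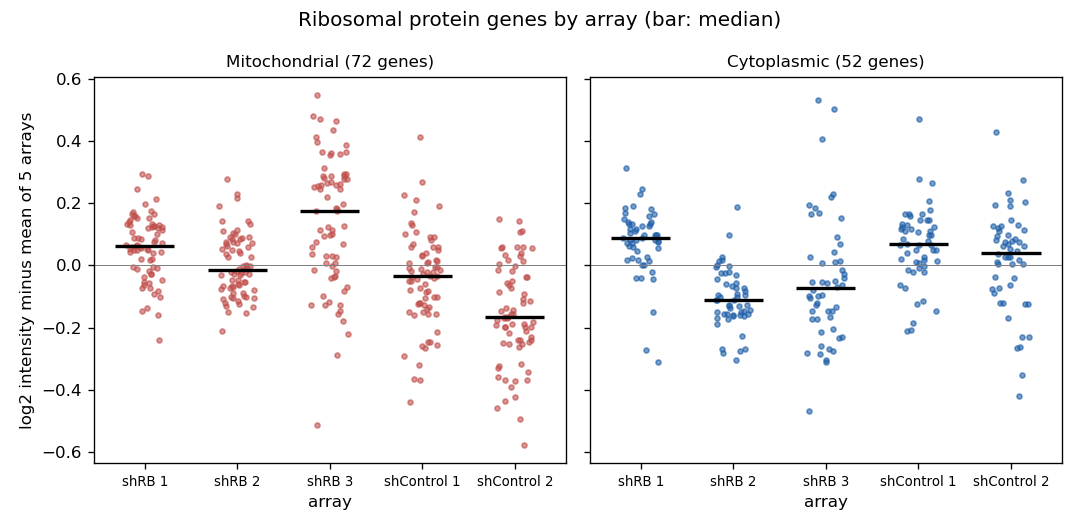
Each point is the log2 intensity of a ribosomal protein gene on an array minus its mean over the 5 arrays (vertical axis), with 72 mitochondrial genes on the left and 52 cytoplasmic genes on the right, and a bar for the median. Mitochondrial medians are highest in shRB 3 (0.18) and lowest in shControl 2 (-0.17), while cytoplasmic medians are lowest in shRB 2 (-0.11) and shRB 3 (-0.07).

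**Figure D3:**
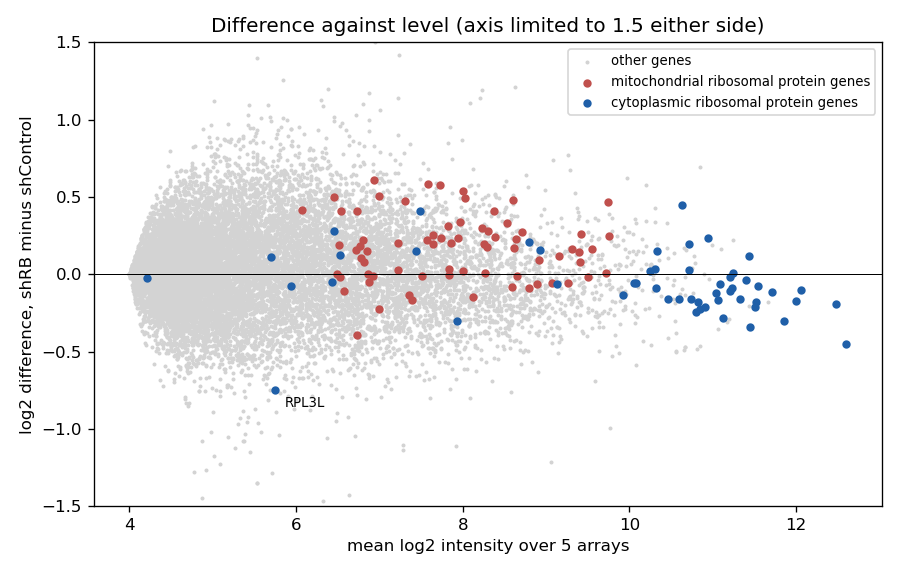
The log2 difference of shRB minus shControl (vertical axis) against the mean log2 intensity over 5 arrays (horizontal axis), with other genes in grey. Mitochondrial members sit mostly above 0, bright cytoplasmic members mostly below it on the intensities as deposited (the cytoplasmic median is -0.004 after quantile normalization), and RPL3L at -0.75.

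Among mitochondrial genes with the MRPL prefix, 36 of 47 had positive differences, with a median of 0.18. MRPL48, a 39S protein, had a log2 intensity of 7.14, 6.90 and 7.48 in shRB replicates 1 to 3 and 6.57 and 6.56 in shControl replicates 1 and 2. Every shRB array lay above both shControl arrays, which were equal to within 0.01. The difference of 0.61 (SE 0.18, 95% interval 0.21 to 1.00) did not pass over all genes (limma adjusted p = 0.118). MRPL13, the counterpart of bacterial L13, had 7.87, 7.63 and 7.94 in shRB and 7.45 and 7.0 in shControl, so the shControl arrays stood apart by most of the difference between the groups. Its difference was 0.58 (SE 0.18, limma adjusted p = 0.125), and without shControl replicate 1 it was 0.81 and passed (limma adjusted p = 0.047).

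Further 39S genes with the smaller p-values lay in the same direction. MRPL34, the counterpart of bacterial L34, had 7.46, 7.46 and 7.59 in shRB and 7.06 and 6.99 in shControl, a difference of 0.48 (limma adjusted p = 0.126). MRPL4, the counterpart of bacterial L4, had 7.29, 7.06 and 7.24 in shRB and 6.55 and 6.83 in shControl, a difference of 0.51 (limma adjusted p = 0.133). In both genes every shRB array lay above both shControl arrays. MRPL55, a 39S protein found in animals, had 6.42, 6.73 and 6.82 in shRB and 6.20 and 6.12 in shControl, a difference of 0.50 (limma adjusted p = 0.15). MRPL47, which lies at the exit of the peptide tunnel, had 8.77, 8.63 and 8.99 in shRB and 8.45 and 8.18 in shControl, a difference of 0.48 (limma adjusted p = 0.165).

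MRPL41 and MRPL58 are 39S genes named whatever their values. MRPL41, which has been linked to apoptosis through BCL2 and p53, had 9.85, 9.71 and 10.01 in shRB and 9.62 and 9.60 in shControl (difference 0.25, limma adjusted p = 0.428). MRPL58, a peptidyl-tRNA hydrolase that frees stalled mitochondrial ribosomes, had 9.02, 8.89 and 8.95 in shRB and 9.04 and 8.68 in shControl (difference 0.09, limma adjusted p = 0.798). The MRPL41 arrays did not overlap, while the MRPL58 arrays of shRB lay between the shControl values.

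MRPL19 and MRPL14 were the 2 mitochondrial members with every shRB array below both shControl arrays. MRPL19, the counterpart of bacterial L19, had 6.59, 6.63 and 6.51 in shRB and 7.14 and 6.79 in shControl, a difference of -0.39 (SE 0.16, limma adjusted p = 0.223). MRPL14, the counterpart of bacterial L14, had 7.32, 7.39 and 7.26 in shRB and 7.48 and 7.5 in shControl, a difference of -0.17 (limma adjusted p = 0.578). Neither passed the test.

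Among mitochondrial genes with the MRPS prefix, 16 of 25 differences were positive, with a median of 0.16. Genes were grouped by prefix alone, which does not always give the subunit that holds the protein. In 11 MRPS genes (44%) every shRB array lay above both shControl arrays, and in 0 below, against 20.6% and 15.4% of all genes. MRPS23, a 28S protein, had the smallest p of all mitochondrial members. Its log2 intensity was 8.14, 8.14 and 8.36 in shRB and 7.74 and 7.61 in shControl, so the groups lay apart by more than either spread. MRPS23 averaged 8.21 ± 0.13 over the 3 shRB arrays and 7.68 ± 0.09 over the 2 shControl arrays (SD), 1.45-fold higher in shRB as deposited, with a difference of 0.54 (SE 0.15, 95% interval 0.21 to 0.87, limma adjusted p = 0.107).

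MRPS14, the counterpart of bacterial S14, had 7.88, 7.78 and 8.19 in shRB and 7.40 and 7.35 in shControl. The difference was 0.58 (SE 0.16, 95% interval 0.21 to 0.94, limma adjusted p = 0.11), with no overlap. MRPS30 is placed here by its prefix, and its protein was first described in connection with programmed cell death. MRPS30 had 8.52, 8.33 and 8.61 in shRB and 8.29 and 8.20 in shControl (difference 0.24, limma adjusted p = 0.438). On the negative side stood MRPS5, the counterpart of bacterial S5, with 7.16, 7.07 and 6.48 in shRB and 7.20 and 7.05 in shControl. Its difference of -0.23 (limma adjusted p = 0.591) rested on shRB replicate 3. MRPS18B, represented by 7 probe sets with almost the same values, stood at -0.15 (limma adjusted p = 0.654).

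With limma's variances modelled by an intensity trend and robust estimation, 6 mitochondrial members passed, all higher: MRPS23, MRPS16, MRPS14, MRPL13, MRPL47 and MRPL48, at adjusted p-values of 0.0273 to 0.0493. The trend setting called 426 of all genes tested, 260 higher and 166 lower.

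**Figure D4:**
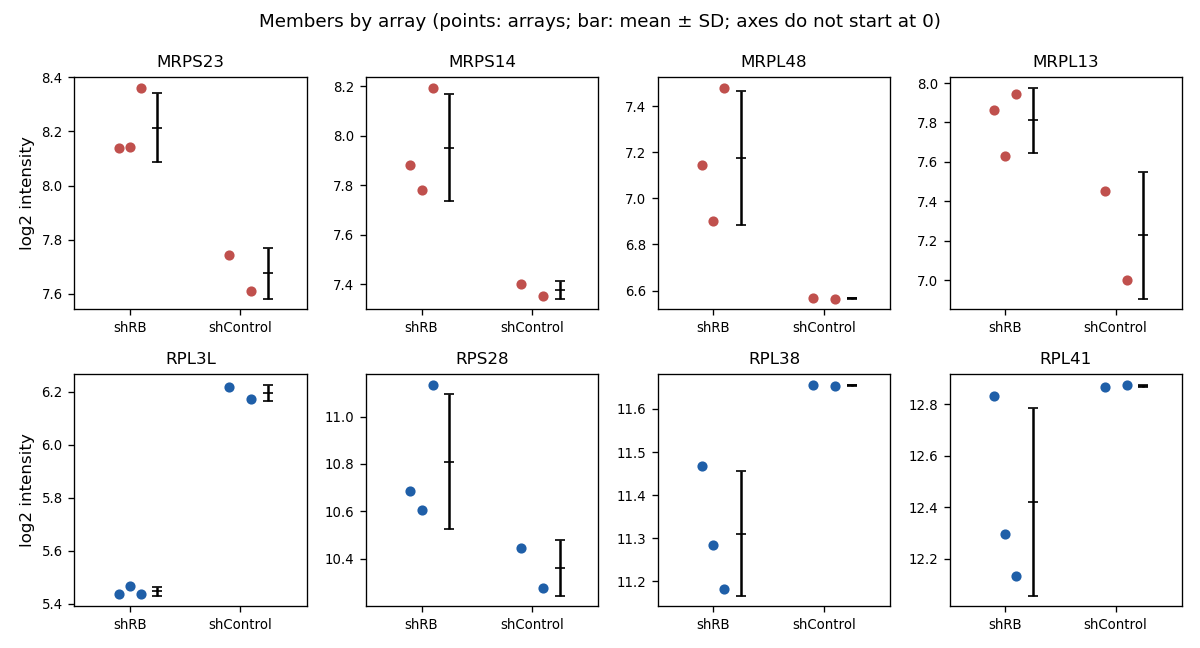
Log2 intensity by array for 4 mitochondrial members (upper row, red) and 4 cytoplasmic members (lower row, blue), with shRB left of shControl. Points are arrays, and bars are the mean ± SD (n = 3 for shRB, n = 2 for shControl). The genes are the 4 with the smallest limma p in each set, a choice that favours groups without overlap. In all 8 the groups do not overlap, as in 20.6% (higher) and 15.4% (lower) of all genes.

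Among cytoplasmic genes, RPL3L was the member that passed. It is a paralog of RPL3 that replaces it in heart and skeletal muscle. Probe set 16822877 on chromosome 16 had a log2 intensity of 5.44, 5.47 and 5.44 in shRB and 6.22 and 6.17 in shControl, so the groups stood apart by many times the spread within them. RPL3L averaged 5.45 ± 0.02 over the 3 shRB arrays and 6.20 ± 0.03 over the 2 shControl arrays (SD), a difference of -0.75 (SE 0.14, 95% interval -1.06 to -0.44, limma adjusted p = 0.0339). It was 0.59 of the shControl level as deposited and 0.48 with the floor of 16 taken off. The call was lost when any single shRB array was left out (limma adjusted p = 0.172 to 0.197), though the difference kept its sign. It was also lost with 16 subtracted and 4 added (0.123), with array weights (0.0582) or with the replicate block (0.207), again with the same sign. The block takes shRB replicate 3, which has no shControl array of that number, out of the comparison.

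The other tissue-restricted or duplicate paralogs did not pass. RPL10L, an intronless testis paralog of RPL10, had 6.70, 6.37 and 6.65 in shRB and 6.25 and 6.33 in shControl (difference 0.28, limma adjusted p = 0.375). RPL26L1, a near copy of RPL26, stood at 0.21 (limma adjusted p = 0.561). RPL22 and its paralog RPL22L1, which replace each other in the ribosome, stood at -0.06 and -0.02 with overlapping arrays, and RPL22L1 turned to 0.09 after quantile normalization. RPS27L, a paralog of RPS27 that p53 induces, had 10.41, 10.24 and 10.32 in shRB and 10.33 and 10.25 in shControl, a difference of 0.04 (95% interval -0.29 to 0.36, limma adjusted p = 0.925). RPL39L, a testis paralog of RPL39, lay at the floor in both groups, and no direction is given. Paralogs and processed pseudogenes of these genes can share probe signal.

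In the 60S subunit, on the intensities as deposited, 25 of 34 differences were negative, with a median of -0.11. RPL41, the shortest human ribosomal protein, had 12.83, 12.30 and 12.13 in shRB and 12.87 and 12.87 in shControl, a difference of -0.45 (SE 0.20, limma adjusted p = 0.263). Replicate 1 of shRB lay within 0.04 of shControl, and the gap came from replicates 2 and 3. The 5 probe sets of RPL41 gave differences from -0.52 to -0.13, all negative. RPL38, needed in mice for translation of Hox messenger RNAs, had 11.47, 11.28 and 11.18 in shRB and 11.66 and 11.65 in shControl (difference -0.34, limma adjusted p = 0.263). RPL7L1 had 7.93, 7.83 and 7.65 in shRB and 8.20 and 8.01 in shControl (difference -0.30, limma adjusted p = 0.331). RPL11, which with RPL5 binds and restrains MDM2 when ribosome assembly is disturbed, had 11.70, 11.38 and 11.26 in shRB and 11.64 and 11.62 in shControl. Its groups overlapped, with a difference of -0.18 (95% interval -0.54 to 0.19, limma adjusted p = 0.606).

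In the 40S subunit 7 of 18 differences were positive and 11 negative, with a median of -0.07. By limma over all genes 0 of the 18 passed. At an unadjusted limma p under 0.05, 1 was higher (RPS28) and 0 lower, against 10.9% higher and 7.22% lower among all genes. RPS28 had 10.69, 10.61 and 11.13 in shRB and 10.44 and 10.28 in shControl, a difference of 0.45 (SE 0.18, limma adjusted p = 0.225). The gene lies on chromosome 19, but all 20 named probe sets with the nearest numbers to its probe set belong to chromosome 11, so the locus that this signal reports is uncertain. RPS19, the gene most often mutated in Diamond-Blackfan anaemia, had 10.78, 10.73 and 10.86 in shRB and 10.60 and 10.59 in shControl, a difference of 0.20 (limma adjusted p = 0.50) with no overlap. RPS15A had 7.62, 7.32 and 8.02 in shRB and 7.42 and 7.07 in shControl, and RPS29 had 11.08, 10.90 and 11.14 in shRB and 10.93 and 10.69 in shControl. Their differences of 0.41 and 0.24 did not pass and their arrays overlapped.

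Other 40S genes lay lower in shRB. RPS18 had 11.94, 11.70 and 11.57 in shRB and 12.02 and 12.05 in shControl (difference -0.30, limma adjusted p = 0.338), while its other probe set gave -0.00026. All 20 named probe sets nearest by number to that other probe set belong to chromosome 3, while the gene is on chromosome 6, so the locus it reports is uncertain. RPS23, part of the decoding centre, had 10.75, 10.66 and 10.67 in shRB and 10.96 and 10.92 in shControl, a difference of -0.25 (limma adjusted p = 0.391) in which the shRB arrays lay close together. RPS6, the substrate of the S6 kinases, stood at -0.11, RPS14, whose loss underlies the anaemia of the 5q- syndrome, at -0.11, and RPS3, a 40S protein that also acts in DNA repair, at -0.09. None of these passed (limma adjusted p of at least 0.338), and the signs of RPS6, RPS14 and RPS3 turned after quantile normalization.

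Universal ribosomal proteins have a counterpart in each ribosome, which allowed pairs to be set side by side. Both members were measured in 10 of 27 listed pairs, and on the intensities as deposited the mitochondrial member had the more positive difference in all 10. After quantile normalization this held in 9, since RPL12 (0.26) then exceeded MRPL11 (0.22). In 8 pairs the mitochondrial member was positive and the cytoplasmic one negative, and in 2 both were positive. The 8 became 7 after quantile normalization, where RPS14 turned positive (0.006), and 6 without shRB replicate 1 or without shControl replicate 2. The largest gap was 0.64, between MRPL47 at 0.48 and RPL35 at -0.16, which sit at the tunnel exit of their ribosomes. MRPS12 and RPS23 of the decoding centre stood at 0.15 and -0.25. MRPL24 and RPL26 stood at 0.20 and -0.17, MRPL2 and RPL8 at 0.19 and -0.16, and MRPL22 and RPL17 at 0.19 and -0.14. MRPS11 and RPS14 stood at 0.20 and -0.11, MRPL1 and RPL10A at 0.02 and -0.16, and MRPS9 and RPS16 at 0.03 and -0.12. In the remaining pairs, MRPS14 and RPS29 stood at 0.58 and 0.24, and MRPL11 and RPL12, which form the base of the stalk that binds elongation factors, at 0.20 and 0.12. The probe set of RPL12 has none of its 20 nearest named neighbours by number on its own chromosome. The pairs share the same arrays, and none of the 20 genes passed the test over all genes (lowest limma adjusted p = 0.11).

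**Figure D5:**
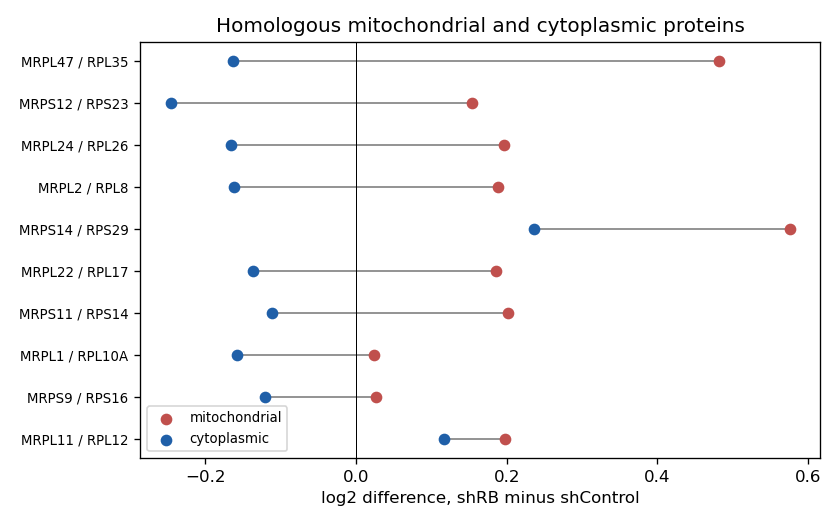
Log2 difference of shRB minus shControl (horizontal axis) for 10 pairs of homologous proteins, mitochondrial in red and cytoplasmic in blue, joined by a line. On the intensities as deposited the mitochondrial point lies to the right in all 10 pairs, and after quantile normalization in 9, with RPL12 (0.26) above MRPL11 (0.22).

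Other genes of the pathway were counted from lists of known factors. Of 49 measured ribosome assembly factors of the nucleolus and cytoplasm (67 listed), 0 passed as higher and 1 as lower, against 0.695% and 0.378% of all genes. The gene that passed was NMD3, the adaptor that carries the 60S subunit out of the nucleus. NMD3 had 6.30, 6.21 and 6.27 in shRB and 7.08 and 7.29 in shControl, with no overlap. The difference was -0.92 (SE 0.15, 95% interval -1.25 to -0.60, limma adjusted p = 0.0168). The call was lost when any single shRB array was left out (limma adjusted p = 0.111 to 0.138), with 16 subtracted and 4 added (0.121) or with the replicate block (0.144). The difference of NMD3 stayed as large, at -0.94 to -0.90 without an shRB array, -1.04 with 16 subtracted and 4 added, and -0.93 with the block. NVL, an ATPase of 60S assembly, stood at 0.51 and NOL6, a nucleolar protein of early 40S assembly, at -0.51, and neither passed (limma adjusted p = 0.106 and 0.121). The list had 23 positive and 26 negative differences and a median of -0.08. At an unadjusted limma p under 0.05 it held 4 higher and 7 lower genes, against 10.9% higher and 7.22% lower among all genes.

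In the remaining lists 0 genes passed by limma over all genes. The list of mitochondrial translation and assembly factors (37 measured of 47) also holds mitochondrial ribosomal proteins whose names lack the MRP prefix. It had 20 positive and 17 negative differences and a median of 0.02. At an unadjusted limma p under 0.05 it held 3 higher and 3 lower genes, against 10.9% higher and 7.22% lower among all genes. Its genes with the smallest p were RMND1 (-0.48), the initiation factor MTIF3 (0.44) and the helicase DHX30 (0.47). The lean of the MRPL and MRPS genes thus stood beside a median near that of all genes in this mixed list. Its arrays lay above without overlap in 32.4% of genes and below in 16.2%, against 20.6% and 15.4% of all genes. The difference between the MRPL and MRPS genes and this list was not tested. Translation factors and other TOP genes (10 of 26) had a median of 0.07, with the elongation factors EEF2 at -0.49 and EEF1A1 at -0.29 and the nascent chain factor NACA at 0.34. In this list 4 genes had every shRB array above both shControl arrays and 4, EEF2 and EEF1A1 among them, had every one below.

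RNA polymerase I and ribosomal DNA factors (5 of 17) had a median of 0.16, led by POLR1H (0.30), POLR1F (0.19) and the nucleolar protein TCOF1 (0.16). The list of mitochondrial aminoacyl-tRNA synthetases and amidotransferase subunits (4 of 22) had a median of -0.13. It was not limited to genes whose products act only in mitochondria. The glycyl-tRNA synthetase GARS1 stood at -0.48, the amidotransferase subunit GATB at -0.14 and the lysyl-tRNA synthetase KARS1 at -0.11. Regulators of ribosomal protein synthesis (18 of 32) had 13 positive and 5 negative differences and a median of 0.11, with ESRRA, a nuclear receptor of mitochondrial genes, at 0.43, EIF4EBP1, a translation repressor under mTOR, at 0.42 and the p53 inhibitor MDM4 at 0.39. Of these 18 genes, 9 had every shRB array above both shControl arrays and 0 had every one below, against 20.6% and 15.4% of all genes. Ribosome quality control factors (18 of 20) had 6 positive and 12 negative differences and a median of -0.11, with ASCC3, which splits collided ribosomes, at 0.52, TCF25 at -0.54 and GTPBP2 at -0.44. In this list 2 genes had every shRB array above both shControl arrays and 7 every one below. The same counts were 9 above and 15 below for the assembly factors of the nucleolus and cytoplasm and 12 and 6 for the mitochondrial translation and assembly list. They were 0 and 2 for the synthetases and 0 and 0 for the polymerase I list. At an unadjusted p under 0.05, the quality control list held 3 higher and 3 lower genes, the regulators 4 higher and 0 lower, the TOP genes 0 higher and 1 lower, the synthetases 0 higher and 1 lower, and the polymerase I list 0 in either direction, against 10.9% higher and 7.22% lower among all genes.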

How the data were processed

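RNA from 5 samples of irradiated LNCaP cells (3 shRB, 2 shControl) was measured on single-colour arrays. The values deposited by the authors are linear intensities per probe set. How they were summarised, background-corrected and normalized, and with which software and build, is not given in the sources used here. The table held 44607 probe sets, of which 15835 name 1 gene and 28772 are unnamed here. Symbols were updated by Entrez identifier to RefSeq (GRCh38.p14; all 15835 matched), and each gene was represented by its probe set of highest mean on the log2 scale. The groups were tested on log2 intensity with limma (version 3.58.1, under R 4.3.3; lmFit and eBayes, two-sided, no covariates), with Benjamini-Hochberg adjustment over 14812 genes and a threshold of 0.05. No dim genes were left out, so all 124 members were tested. The procedure was tested on simulated data. The number of arrays limits the precision.

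Members and lists were chosen with earlier results of these data known, so their directions are not independent evidence. Named members are, in each set, the 8 with the smallest p, the 4 largest differences each way, both members of each homologous pair, and a list of members given whatever their values; each pathway list adds the 3 smallest p. MRPS16, the genes with discordant probe sets, the probe sets named for their numbering and those named for an E2F match or as not analysed were chosen after their values or sequences were seen. The test was repeated after quantile normalization or with array medians subtracted, without dim genes, with 16 subtracted and 4 added, with probe sets averaged, with an intensity trend and robust variances, with array weights, with replicate numbers as a block, at a threshold of 0.10, and without each array. Counts of genes without overlap and of homologous pairs under the alternatives were added after seeing the data.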

Additional observations from a re-analysis of the deposited data

How the results depend on the processing

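The positive median of the mitochondrial genes and the negative median of the cytoplasmic genes kept their signs under all alternatives run, with ranges of 0.11 to 0.24 and -0.15 to -0.04 when an array was left out, but the cytoplasmic median after quantile normalization was -0.004. The count of 1 cytoplasmic gene past the threshold became 0 with 16 subtracted and 4 added, 0 with array weights, 0 with the replicate block and 3 with an intensity trend and robust variances, and 0 to 1 without an array. The mitochondrial count of 0 became 6 with the trend and 0 to 1 without an array. Over all genes the count of 159 became 385 with dim genes left out, 13 with 16 subtracted and 4 added, 426 with the trend, 88 with array weights, 24 with the replicate block and 517 at a threshold of 0.10, and 22 to 411 without an array. Genes without overlap numbered 19 (mitochondrial, higher) with array medians subtracted, and without an array 31 to 45 (mitochondrial, higher) and 13 to 30 (cytoplasmic, lower). Without an array the share of all genes rose as well, to 25.55% to 37.96% higher and 17.97% to 32.38% lower. Without shControl replicate 1, 62.5% of mitochondrial genes lay higher, against 35.94% of all genes, and 28.85% of cytoplasmic genes lower, against 32.38%. Without shControl replicate 2 these were 45.83% against 37.96% and 34.62% against 28.92%. The mitochondrial member was the more positive in 9 of 10 pairs after quantile normalization and in 10 under the other alternatives run. Of the 50 named members, signs turned after quantile normalization for RPL22L1 (0.093), RPS14 (0.006), RPS3 (0.016) and RPS6 (0.098), with 16 subtracted for RPL39L (0.017) and with the replicate block for RPS3 (0.009). Without an array, MRPL1 ranged from -0.035 to 0.083, MRPL58 from -0.092 to 0.276, MRPS9 from -0.125 to 0.179, RPS27L from -0.009 to 0.079, RPL22 from -0.132 to 0.019, RPL22L1 from -0.079 to 0.058, RPL39L from -0.243 to 0.199 and RPS3 from -0.168 to 0.009. Deviations of same-numbered arrays from their group means correlated at r = -0.021 and 0.046 over genes. With 2 shControl arrays, the deviations of these arrays mirror each other, so this check cannot decide whether arrays were paired. The replicate block rests on the shared numbers alone. Replicate 3 exists only in shRB, so the block gave the same differences as leaving out shRB replicate 3 (RPL3L -0.7448 in both). It is not a further check on the differences. The cause of each change was not tested. Intensities near the floor, as for RPL39L, limit what can be seen.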

Other observations

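Pseudogenes of ribosomal proteins, which the rule on members leaves out, had their own named probe sets. Of 27 such genes 20 had positive differences in shRB (74.1%, against 53.8% of all genes), with a median log2 difference of 0.14. By limma over all genes 0 passed. At an unadjusted limma p under 0.05, 3 of the 27 were higher and 0 lower, against 10.9% higher and 7.22% lower among all genes. In 3 of them every shRB array lay above both shControl arrays (11.1%, against 20.6% of all genes). RPL32P3 stood at 0.65 (limma adjusted p = 0.0961), RPL23AP87 at 0.64 (0.115) and MRPL45P2 at 0.45 (0.176). These genes were named after their values were seen.

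Probe sets of the same gene did not always give the same difference. MRPL44 had 0.34 and -0.01, MRPS2 had 0.30 and -0.01, and RPL39 had 0.07 and -0.17, and none of these passed. The probe sets of RPL12, RPL41, RPS27 and RPS28 used here had fewer than 10 of their 20 nearest named neighbours by number on the gene's own chromosome, against 0 of the 72 mitochondrial members. For RPS27, all 20 lay on chromosome 12, while the gene is on chromosome 1.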
